A study of Sus scrofa with 12 samples.

Results

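The heat shock protein and chaperone genes of pig mesenchymal stem cells (MSCs) were compared with the same genes in the extracellular vesicles (EVs) that those cells released. Members were taken from the mRNA count table by symbol: the HSP families A to H and HSP90, the J proteins DNAJA, DNAJB and DNAJC, the numbered BAG genes, CCT2 to CCT8, the PDIA genes, and TCP1, CALR, CANX, HYOU1 and HSF1. The rule matched 120 entries, and the entry with the most reads was used for each symbol. This gave 81 genes, counted by symbol, of the 13363 distinct symbols in the table. Of these, 46 encode cytosolic or nuclear proteins, 23 proteins of the endoplasmic reticulum (ER) and 8 mitochondrial proteins. Of the others, CCT8L2 had 2 reads in all and belonged to no role, and 3 were taken by spelling: HSPG2 encodes perlecan, a basement membrane proteoglycan, HSPBP1 is a cofactor of HSP70, and HSPBAP1 is a binding partner of a small heat shock protein.

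The mRNA libraries came from 3 female domestic pigs aged 3 months. MSCs were isolated from abdominal fat, grown with platelet lysate and used at passage 3, and the EVs were pelleted by ultracentrifugation from the medium of the same pig's cells. This gave 3 MSC and 3 EV libraries, with no treatment in either group, and pig 1, 2 and 3 name the same animal in both groups. Animals of 1 sex and 1 age are thus the whole sample, and the vesicles are those of cultured cells.

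Chaperones bind unfolded or misfolded proteins and help them to fold, assemble or be degraded. In the cytosol, HSP70 works with J proteins, which deliver substrates, and with exchange factors such as BAG proteins, while HSP90 and the CCT ring finish particular substrates such as kinases or actin and tubulin. In the ER, the HSP70 protein HSPA5 (BiP), its J proteins, HSP90B1 and the protein disulfide isomerases fold secreted and membrane proteins, and many of their genes are switched on by the unfolded protein response, whereas heat shock factor HSF1 drives the cytosolic genes. MSCs secrete much matrix protein, and EVs carry RNA of their parent cell.

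The MSC libraries held 11332330 to 12276855 reads on genes and the EV libraries 10429085 to 12151384. A level is given as CPM (reads of a gene relative to the size of its library) after TMM scaling, and is a share of the RNA in a library, so the amount of RNA per cell or per vesicle was not measured. CD44 and NT5E (CD73), MSC surface markers, and CD63, an EV marker, were well covered in every library, with CD44 between 315 and 959 CPM. THY1 (CD90) was listed at 0, and ENG (CD105), CD9 and ITGB1 had at most 8.90 CPM. Other entries on the same strand covered 99.7% to 100% of the span of each of these genes, so their low values are not given as levels. Of the markers of other cell types, PECAM1 of endothelium was at 9.67 to 16.7 CPM in MSCs and 1.56 to 6.59 in EVs, CD14 of monocytes was at 42.1 to 60.2 in all libraries, PTPRC of leukocytes had at most 10 reads, ADIPOQ of adipocytes had 1 read in all, PLIN1 was listed at 0 and CDH5 had no entry. Such overlap covered 100% of the span of PLIN1, 97.1% of that of PECAM1 and 76.0% of that of CD14. The part of other cell types in the values of the chaperone genes was not tested.

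The annotation decided which chaperones could be read. Of the 81 genes, 33 lay on a doubled entry, meaning that another entry on the same strand shared at least 50% of the longer span, often the same gene once by symbol and once by Ensembl identifier. For 11 of them, both ends coincided with those of the other entry, and all 11 had 0 reads in all 6 libraries. They include some of the best known chaperones: the ER lectins CALR (calreticulin) and CANX (calnexin), the disulfide isomerase PDIA3, the HSP110 protein HSPH1, the HSP40 protein DNAJB1 and HSF1 itself. Over the whole table, 97.6% of the 1604 entries with coinciding ends had 0 reads, while among the 16009 that no other entry overlapped the share was 28.8%. The 0 of these 11 genes is therefore not given as a level.

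The median was 34 reads over all libraries for the 33 doubled members and 1984.5 for the other 48. For the 22 doubled members whose ends did not coincide with those of the other entry it was 440 reads, from 0 to 14812, the highest in HSP90AA1, followed by PDIA6 with 8654, HSPA8 with 7825 and HSP90B1 with 6246. At the low end of these 22, TCP1, a subunit of the CCT ring, had 39 reads, DNAJC3 (P58IPK, a BiP partner) 34 and DNAJB11 (ERdj3) 2. The inducible HSP70, the best known heat shock protein, was split over 9 entries of 106 to 1092 bases on unplaced scaffolds, and HSP70.2 was at 0. Tested members on doubled entries are named as doubled below.

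After edgeR's filter on low counts, 54 of the 81 genes were tested, with at least 58 reads each. These were 29 cytosolic, 15 ER and 7 mitochondrial genes and the 3 taken by spelling. Of the 27 not tested, 16 had 0 reads and the other 11 had 1 to 42 reads in all. For a library with 0 reads of a gene, the upper limit was set at 3 counts, or 0.232 to 0.303 CPM by library, and it covers counting error only.

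HSPA5, the ER HSP70, and HSP27 (HSPB1), a small heat shock protein that holds unfolded proteins and binds actin, stood at the highest levels per length. HSP27 was at 514 ± 302 CPM per kilobase in MSCs (SD, n = 3) and 244 ± 53.9 in EVs. HSPA5 was at 474 ± 23.7 CPM per kilobase in MSCs and 597 ± 185 in EVs. Their libraries overlapped in MSCs, so their order there is not firm, while in EVs every library had HSPA5 above HSP27. Among the other chaperones in MSCs, on the same scale, came HSP90AA1 at 119 ± 3.04, on a doubled entry, then CCT4 at 94.8 ± 3.54, CCT8 at 93.6 ± 19.5, HYOU1 at 85.6 ± 6.25 and HSPA9 at 83.4 ± 4.87. CCT4, CCT8, HYOU1 and HSPA9 lay within their spread of at least 1 neighbour in this order.

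The main comparison asked which of these mRNAs make up a different share of the RNA in EVs than in the parent MSCs. By the thresholds of the study, a fold change over 2 with an unadjusted p-value under 0.05, 1 chaperone gene was higher in EVs, HSPA13, and 1 was lower, HSP27. Over all 12392 entries tested these thresholds called 5.55% higher and 3.57% lower, so the members' counts are 1 of 54 in each direction against those shares. At any fold, 3 members were higher with an unadjusted p-value under 0.05 (8.03% of all entries), all in the ER: HSPA13, DNAJB9 and DNAJC25. Another 4 were lower (7.93% of all entries): HSP27, the CCT subunits CCT7 and CCT5, and HSPBP1.

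No member and no entry of the table passed an adjusted p-value of 0.05 in edgeR's quasi-likelihood test (0.00% of all entries called). The lowest Benjamini-Hochberg adjusted p was 0.219 among the members, for HSPA13, and 0.129 over the whole table. With the pig as a block, 1.10% of all entries passed, no member did, and HSPA13 came nearest with an adjusted p of 0.0889 from edgeR. DESeq2 called 3.28% of all entries and 1 member, HSPA13. Limma called no member. In simulated data for this comparison, with 12392 entries, edgeR recovered 26.5% of 4-fold changes with 1 false call, the block 0% with 1 and DESeq2 70.5% with 37. Of 16-fold changes they recovered 90.5%, 89% and 93.5%, with 7, 11 and 49 false calls. The simulated libraries were drawn independently, with no difference between pigs and with the spread of the fit without the block. They therefore cannot show what the block recovers where the libraries of 1 pig vary together.

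**Figure D1:**
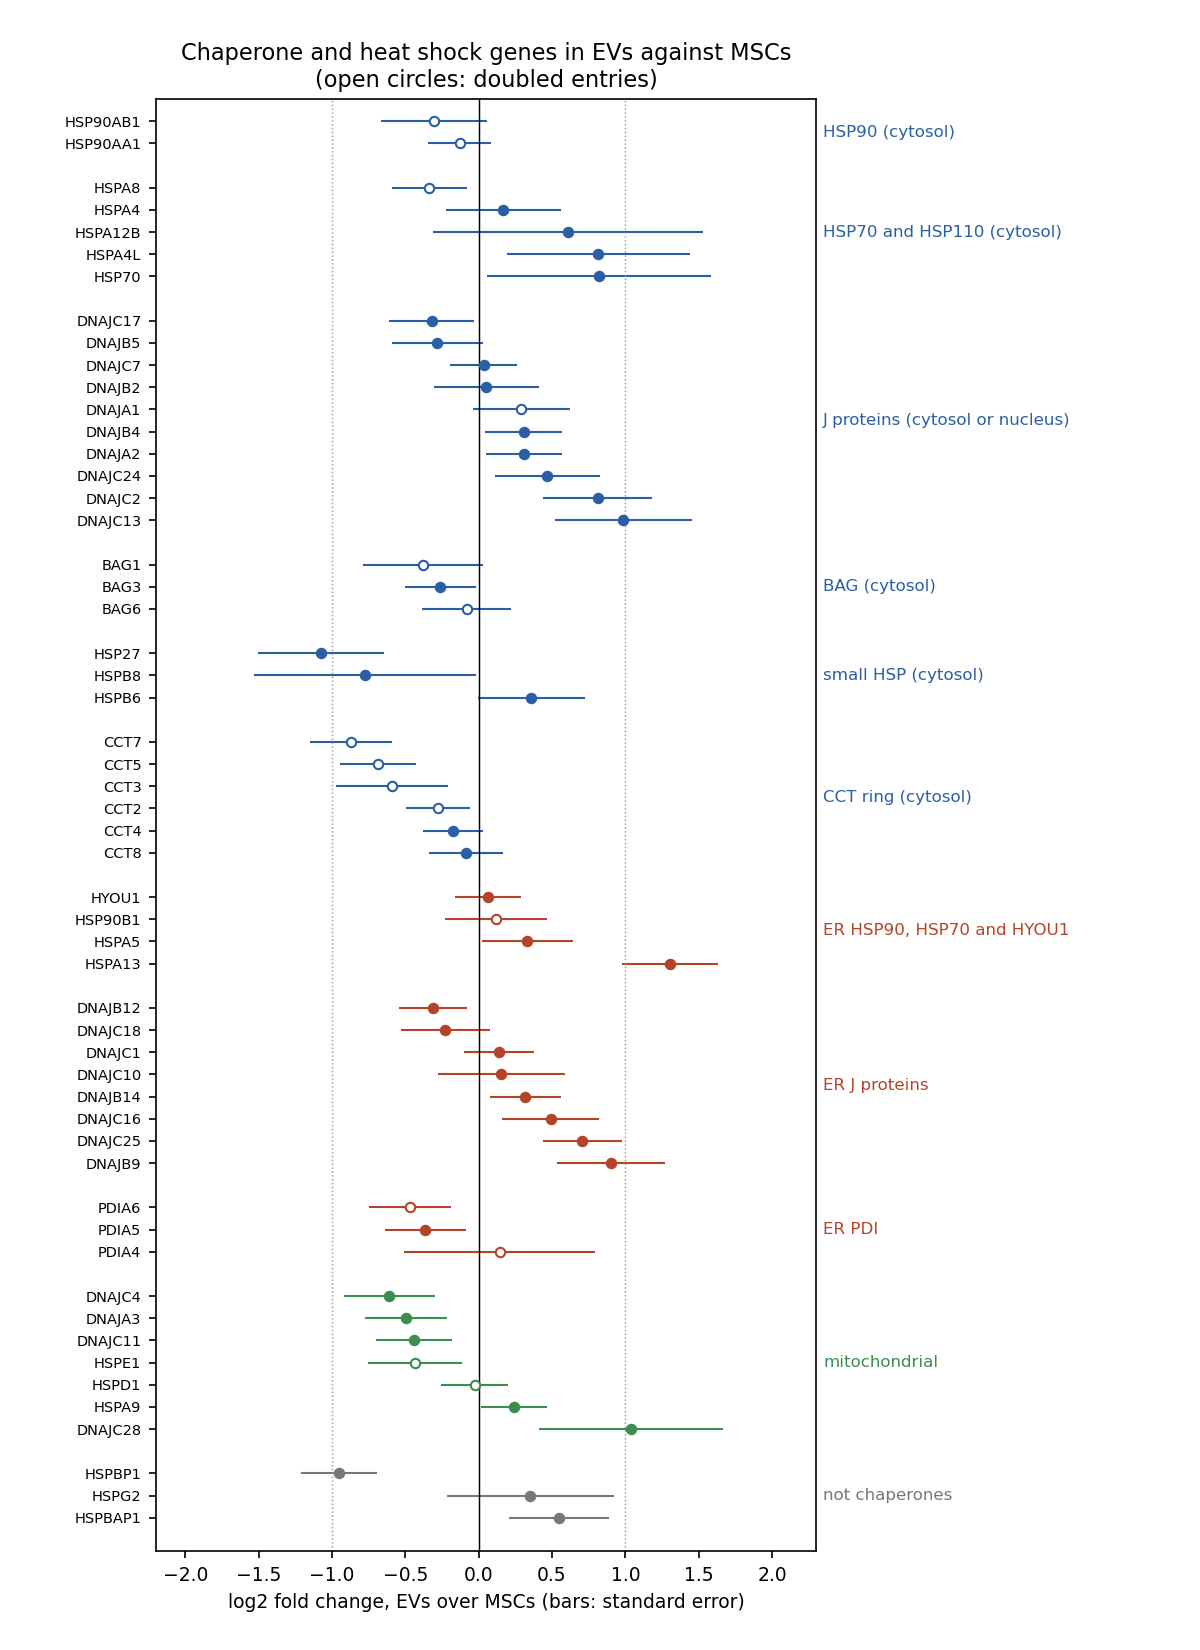
Log2 fold change of EVs over MSCs for the 54 members tested, by role, with the standard error of edgeR's fit as bars. Blue marks cytosolic, red ER, green mitochondrial genes and grey those taken by spelling, open circles mark doubled entries and dotted lines a 2-fold change. HSPA13 lies farthest to the right at 1.30 and HSP27 farthest to the left at -1.07, and the 6 CCT subunits are all left of 0.

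HSPA13 encodes an HSP70-family ATPase of the ER membrane fraction that lacks the substrate-binding part of other HSP70 proteins. It lies on chromosome 13 of the susScr3 build, from 189549389 to 189561047 on the minus strand, with a model of 4069 bases. Its level was 133, 61.1 and 93.8 CPM in the MSCs of pigs 1, 2 and 3, and 232, 278 and 202 CPM in their EVs. The 3 EV libraries all lay above the 3 MSC libraries, and the MSCs of pig 2 were the lowest of the 6. EVs were higher by 1.30 on the log2 scale (SE 0.33), or 2.47-fold, with an unadjusted p of 0.004 in edgeR's test. With any 1 library left out it stayed between 1.06 and 1.61, the lowest without the MSCs of pig 2, and the largest unadjusted p among these edgeR fits was 0.019. The adjusted p was 0.0183 with DESeq2 and ranged from 0.0183 to 0.630 over all alternatives.

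DNAJB9 (ERdj4) is a J protein of the ER lumen that partners HSPA5 and takes part in the removal of misfolded proteins. It lies on chromosome 18, from 40219849 to 40224536 on the minus strand. Its level was 48.9, 92.1 and 69.0 CPM in the MSCs and 79.9, 130.0 and 182.5 CPM in the EVs of pigs 1, 2 and 3. EVs were above MSCs within each pig, but the groups overlapped, since the EVs of pig 1 were below the MSCs of pig 2. This gave a log2 fold change of 0.90 (SE 0.37), with an unadjusted p of 0.041 and an adjusted p of 0.296 from edgeR. It was 0.58 without the EVs of pig 3, with an unadjusted p of 0.156 in edgeR's test, and the unadjusted p was also above 0.05 without the MSCs of pig 1 or 3 or the EVs of pig 2.

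DNAJC25 encodes a J protein that spans the membrane. Its level was 12.4, 12.5 and 13.2 CPM in the MSCs of pigs 1, 2 and 3 and 25.1, 16.7 and 20.5 CPM in their EVs. The MSC libraries were close together and all EV libraries lay above them. EVs were higher by 0.71 on the log2 scale (SE 0.27), with an unadjusted p of 0.031 and an adjusted p of 0.278 from edgeR. Without the EVs of pig 1 it was 0.55, with an unadjusted p of 0.115 in edgeR's fit.

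The general chaperones of the ER differed less than these 3 genes. HSPA5, the central chaperone of the ER, was at 970.3, 928 and 1025 CPM in MSCs and at 911, 1119.9 and 1649.9 CPM in EVs. The MSC values were close together, and only the EVs of pig 3 stood well above them. For HSPA5 the log2 fold change was 0.33 (SE 0.31), with an adjusted p of 0.582 from edgeR, and 0.06 without the EVs of pig 3. HYOU1 (GRP170), its exchange factor, was at 380, 437 and 396 CPM in MSCs and 402, 445 and 420 CPM in EVs, a log2 fold change of 0.06 (SE 0.23). HSP90B1 (GRP94), on a doubled entry, had a log2 fold change of 0.12 (SE 0.35) and its groups overlapped.

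Of the 12 ER J proteins, 8 were tested, and 6 had a positive log2 fold change (49.1% of all entries), from 0.14 for DNAJC1 to 0.90 for DNAJB9. DNAJB14, which is anchored in the ER membrane, was at 22.1, 17.3 and 21.8 CPM in MSCs and 25.8, 27.4 and 23.1 CPM in EVs, so its groups did not overlap, with a log2 fold change of 0.32 (SE 0.24). DNAJC10 (ERdj5), which reduces disulfide bonds, was at 245, 69.6 and 198 CPM in MSCs and 198, 169 and 205 CPM in EVs. The low MSC value of pig 2 was the only one of the 6 that stood apart, and the log2 fold change was 0.16 (SE 0.43), but -0.22 without that library. DNAJB12, also anchored in the ER membrane, was lower in the EVs of all 3 pigs, at -0.31 (SE 0.23) and at -0.14 without the MSCs of pig 2.

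Of the 5 disulfide isomerases, 3 were tested, 2 with a negative and 1 with a positive log2 fold change, and none passed the unadjusted test. PDIA6 (P5), on a doubled entry, was at 107, 194 and 138 CPM in MSCs and 89.5, 108 and 119 CPM in EVs. PDIA5 was at 43.8, 80.2 and 57.5 CPM in MSCs and 44.2, 43.8 and 53.0 CPM in EVs. Both had their highest value in the MSCs of pig 2, and both groups overlapped. The log2 fold changes were -0.47 (SE 0.28) for PDIA6 and -0.36 (SE 0.27) for PDIA5, and they were -0.21 and -0.11 without the MSCs of pig 2. PDIA4 (ERp72), on a doubled entry, had 58 reads in all and a log2 fold change of 0.14 (SE 0.65), PDIA2 had 3 reads, and PDIA3 had 0.

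Over the 15 ER genes tested, 11 had a positive log2 fold change, against 49.1% of all entries, and their median was 0.14, against -0.02 over all entries. Without the MSCs of pig 2, 9 of them were positive and 6 negative, with a median of 0.22. The median was 0.06 without the EVs of pig 3, and 0.24 over the 12 genes that were not on doubled entries. By pig, the median difference between EVs and MSCs was -0.05, 0.27 and 0.26 on the log2(CPM + 0.5) scale in pigs 1, 2 and 3. In pig 1 the median ER gene was thus not higher in EVs, while the summed CPM of the list was 2195 in its MSCs and 2220 in its EVs. The summed CPM of the 23 ER genes was 2208 ± 67.9 in MSCs and 2654 ± 464 in EVs (SD, n = 3), and without HSPA5 it was 1233 ± 19.7 and 1427 ± 102. HSPA13 had a mean of 96.0 CPM in MSCs and 237 in EVs, and DNAJB9 70.0 and 131, while 4 tested ER genes had a negative log2 fold change. The difference in the sum without HSPA5 thus lay in HSPA13 and DNAJB9.

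**Figure D2:**
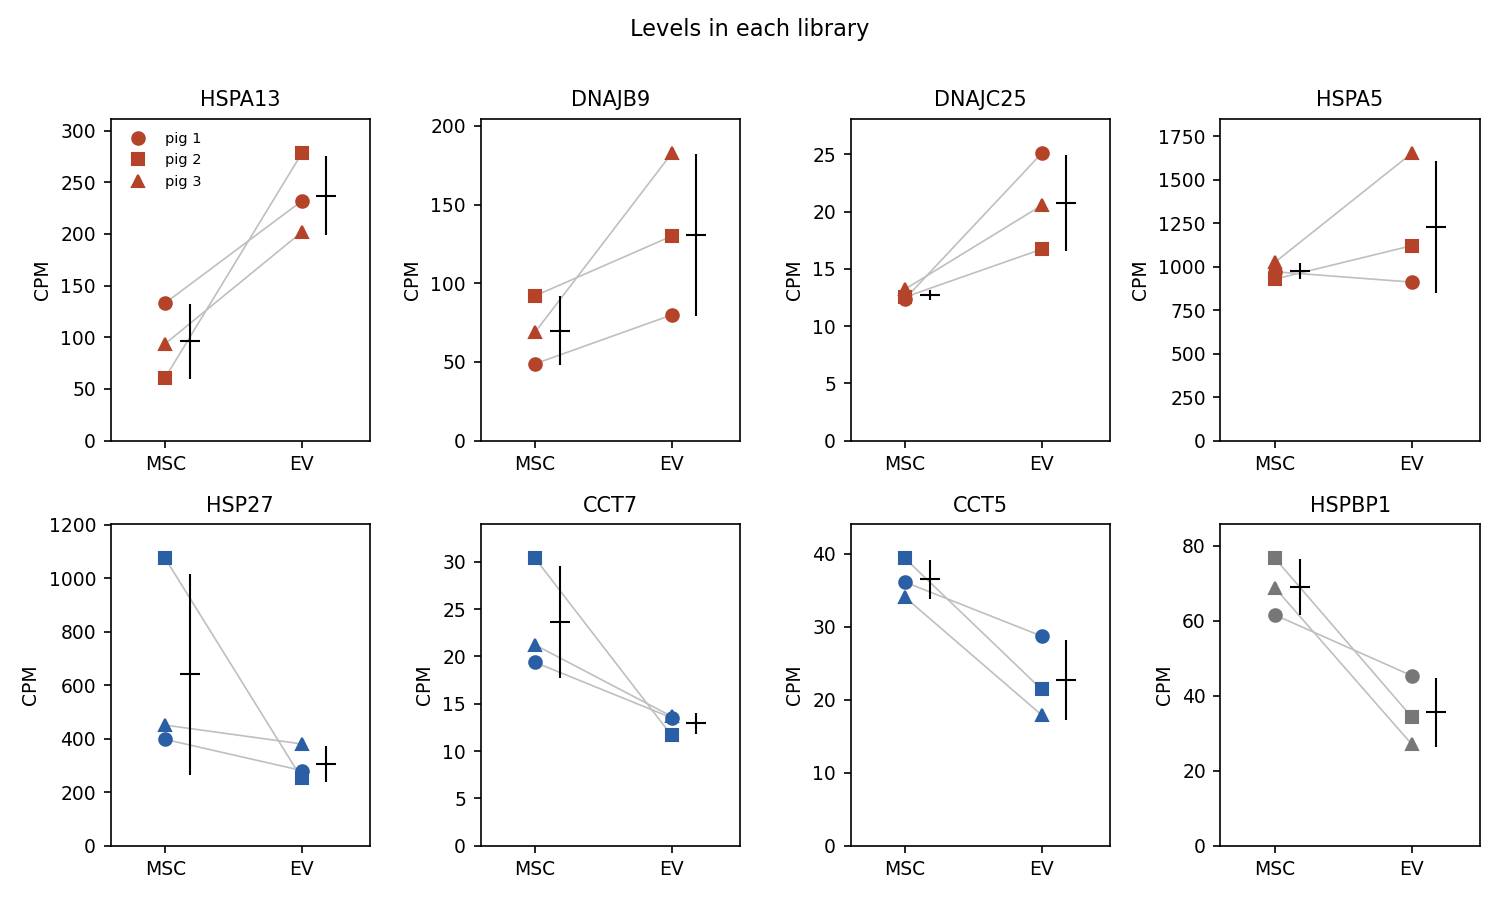
Level in CPM (linear axes from 0) of 8 genes in each library, with lines that join the MSCs and EVs of 1 pig and black marks at the mean ± SD of 3 libraries. EVs of all 3 pigs are above their MSCs for HSPA13, DNAJB9 and DNAJC25 and below them for HSP27, CCT7, CCT5 and HSPBP1, while HSPA5 differs in direction between pigs and the MSCs of pig 2 stand far above the rest for HSP27.

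HSP27 was the chaperone gene with the largest difference in the other direction. It lies on chromosome 3, from 9925991 to 10050785 on the minus strand, with a model of 1248 bases. HSP27 shares 12.6% of this span with other entries, MDH2 among them, and was not counted as doubled. Its level was 397, 1074 and 451 CPM in the MSCs of pigs 1, 2 and 3 and 281, 252 and 381 CPM in their EVs. Every EV library was below every MSC library, and the MSCs of pig 2 were more than 2-fold above the next library. The log2 fold change was -1.07 (SE 0.43), with an unadjusted p of 0.039 and an adjusted p of 0.291 from edgeR. Without the MSCs of pig 2 it was -0.48 with an unadjusted p of 0.104 in edgeR's test, and the unadjusted p was also above 0.05 without the EVs of pig 1 or 2, and with the pig as a block at 0.0505.

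None of the other small heat shock proteins passed the unadjusted threshold. HSPB8, which works with BAG3 to send misfolded proteins to autophagy, was at 13.0, 39.9 and 6.36 CPM in the MSCs and 8.95, 20.9 and 4.65 CPM in the EVs of pigs 1, 2 and 3. Pig 2 was the highest and pig 3 the lowest in both groups, EVs were below MSCs within each pig, and the log2 fold change was -0.78 (SE 0.76). It turned to 0.25 without the MSCs of pig 2 and was -1.55 without the EVs of pig 2. With the pig as a block it was -0.65, with an unadjusted p of 0.0745 from edgeR. HSPB6 was at 14.5, 29.1 and 24.7 CPM in MSCs and 26.2, 40.3 and 21.0 CPM in EVs, at 0.36 (SE 0.36). HSPB9 had 1 read and HSPB7, on a doubled entry, had 0.

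The CCT ring (TRiC), which folds actin and tubulin, has 8 members in the list, of which TCP1 and CCT6B were too low to test. All 6 tested subunits had a negative log2 fold change, against 50.9% of all entries, and 5 were lower in the EVs of all 3 pigs, against 24.2% of all entries. The median was -0.44, from -0.87 to -0.09, and -0.45 without the MSCs of pig 2. The subunits were chosen together as parts of 1 complex and share these 6 libraries, so they are not independent replicates. The summed CPM of the ring was 556, 479 and 503 in MSCs and 476, 435 and 419.7 in EVs, so the EVs were lower within each pig and the groups did not overlap, by a narrow margin.

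CCT7 was at 19.4, 30.3 and 21.2 CPM in the MSCs of pigs 1, 2 and 3 and 13.5, 11.6 and 13.7 CPM in their EVs. CCT5 was at 36.1, 39.3 and 34.0 CPM in MSCs and 28.7, 21.4 and 17.9 CPM in EVs. For both, every EV library was below every MSC library. The log2 fold change of CCT7 was -0.87 (SE 0.28), with an unadjusted p of 0.016 and an adjusted p of 0.251 from edgeR, and that of CCT5 was -0.69 (SE 0.26), with 0.031 and 0.278. With 1 library left out, the unadjusted p reached 0.068 for CCT7, without the EVs of pig 2, and 0.097 for CCT5, without the EVs of pig 3, and edgeR's unadjusted p for CCT5 passed 0.05 only without the EVs of pig 1 or the MSCs of pig 2.

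Both CCT7 and CCT5 lay on doubled entries, as did CCT3 and CCT2, at -0.59 (SE 0.38) and -0.28 (SE 0.22). The model of CCT7 on chromosome 3 (72730408 to 72744281, minus strand) has 1886 bases, and that of its double 1627 bases with 0 reads. The model of CCT5 has 1846 bases on an unplaced scaffold, and that of its double 1551 bases with 7 reads. A further CCT5 entry of 174 bases on another unplaced scaffold had 602 reads. These were 148, 139 and 82 in the MSCs of pigs 1, 2 and 3 and 105, 83 and 45 in their EVs. On that entry the reads were fewer in EVs within each pig, but the groups overlapped. CCT4 and CCT8, which were not doubled, carried most of the reads of the ring and the smallest differences. CCT4 was at 222, 215 and 206 CPM in MSCs and 190.0, 185 and 196 CPM in EVs, with no overlap and a log2 fold change of -0.17 (SE 0.21), and CCT8 was at 226, 148 and 202 CPM against 206, 179.6 and 158, at -0.09 (SE 0.25).

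**Figure D3:**
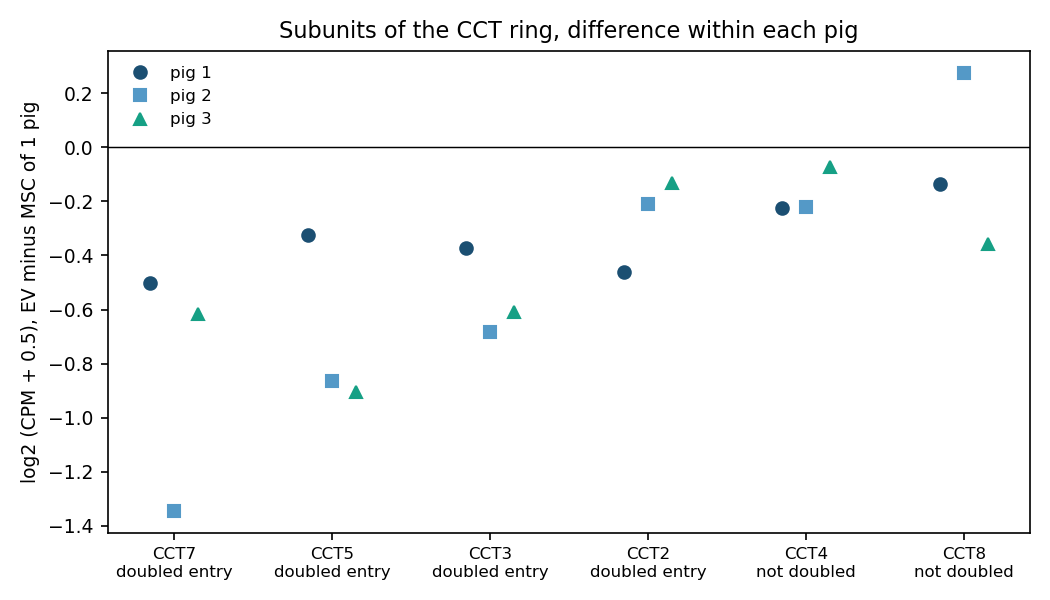
Difference between the EV and the MSC library of each pig on the log2(CPM + 0.5) scale for the 6 CCT subunits tested, 1 point a pig. All 3 pigs are below 0 for every subunit except CCT8, where pig 2 is above, and the larger differences are in subunits on doubled entries.

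Doubled entries lay lower in EVs more generally. Of the 15 tested members on doubled entries, 12 had a negative log2 fold change and the median was -0.30, while of the other 39 only 14 were negative and the median was 0.17. Over all entries tested, 58.0% of the 1086 doubled entries and 50.3% of the 11306 others were negative, with medians of -0.11 and -0.0048. Whether the doubling plays a part in the CCT values was not tested.

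CCT6B, which encodes a CCT subunit known mainly from testis, was not in the main test. It had 0 reads in each MSC library and 2, 6 and 4 reads in the EVs of pigs 1, 2 and 3. These 12 reads are too few for a fold change, although without the filter its unadjusted p was 0.00988 in edgeR's fit and its adjusted p was 0.281.

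Of the 9 members of the cytosolic HSP70 and HSP110 families, 5 were tested and 4 had a positive log2 fold change, against 49.1% of all entries. None was past the unadjusted threshold, and without the MSCs of pig 2 there were 3 positive and 2 negative. HSPA12B, with 159 reads in all, was at 0.61 (SE 0.92) and at -0.69 without the EVs of pig 3. HSPA8 (HSC70), the constitutive form and itself a known EV protein, lay on a doubled entry and was at 94.1, 144 and 139.5 CPM in MSCs and 116, 93.9 and 89.0 CPM in EVs. It was lower in the EVs of pigs 2 and 3 and higher in those of pig 1, at a log2 fold change of -0.34 (SE 0.25). HSPA4 (APG-2), an exchange factor, was at 217, 75.1 and 198 CPM in MSCs and 207, 184 and 161 CPM in EVs, at 0.17 (SE 0.40) and at -0.18 without the MSCs of pig 2. HSPA4L, its close relative, was at 38.4, 5.07 and 36.0 CPM in MSCs and 47.5, 43.2 and 49.6 CPM in EVs, with no overlap and a log2 fold change of 0.82 (SE 0.63). For HSPA4L, the MSCs of pig 2 were far below the other MSC libraries, and without them the log2 fold change was 0.33.

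For the inducible HSP70, the longest of the 9 entries was tested and had a log2 fold change of 0.82 (SE 0.76). Summed over the 9 entries, there were 4, 38 and 14 reads in the MSCs of pigs 1, 2 and 3 and 27, 70 and 21 in their EVs. EVs were higher within each pig, pig 2 was highest in both groups, and the groups overlapped. Without the MSCs of pig 2 but with its EVs kept, the tested entry had a log2 fold change of 1.93. Its unadjusted p was 0.0339 with edgeR, with an adjusted p of 0.283. With the pig as a block the log2 fold change was 0.99, with an unadjusted p of 0.140 from edgeR.

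The HSP90 genes were at -0.13 (SE 0.21) for HSP90AA1 and -0.30 (SE 0.36) for HSP90AB1, both on doubled entries. HSP90AA1, the inducible form, was at 222, 228 and 216 CPM in MSCs and 225, 192 and 191 CPM in EVs, with overlap through pig 1. HSP90AB1 had 452 reads in all. The BAG proteins, exchange factors for HSP70, were at -0.38 for BAG1, -0.26 for BAG3 and -0.08 for BAG6, none past the unadjusted threshold. BAG1 and BAG6 lay on doubled entries. Leaving out the MSCs of pig 2, HSP90AB1 was at -0.09, BAG3 at -0.06 and BAG6 at 0.02. BAG3 was at 104, 165 and 123 CPM in MSCs and 100.3, 111 and 115 CPM in EVs, and EVs were lower within each pig.

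Of the 17 cytosolic and nuclear J proteins, 10 were tested and 8 had a positive log2 fold change, against 49.1% of all entries. None was past the unadjusted threshold. DNAJC13 (RME-8), which works on endosomes, where exosomes form, was at 84.6, 20.8 and 66.2 CPM in MSCs and 98.9, 120.4 and 121 CPM in EVs. DNAJC2 (zuotin), a J protein of the ribosome, was at 22.7, 11.7 and 32.3 CPM in MSCs and 41.2, 40.5 and 35.5 CPM in EVs. All EV libraries were above all MSC libraries for both, and the MSCs of pig 2 were lowest. Their log2 fold changes were 0.99 (SE 0.47) and 0.81 (SE 0.37), and 0.59 and 0.51 without the MSCs of pig 2. With the pig as a block, DNAJC13 reached 1.19 with an unadjusted p of 0.0200 and HSPA4L 1.19 with an unadjusted p of 0.0433, with adjusted p values of 0.184 and 0.241 from edgeR. In that fit, 3 members were higher past both unadjusted thresholds (8.01% of all entries) and none was lower (5.17%), since HSP27 was at -0.93. At any fold, 5 members were higher in it with an unadjusted p under 0.05, against 10.9% of all entries (HSPA13, DNAJB9, DNAJC13, DNAJC2 and HSPA4L), and 3 were lower, against 8.67% (CCT7, CCT5 and HSPBP1). DNAJC25 no longer passed, at 0.0576.

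DNAJA1, DNAJA2 and DNAJB4, the general partners of HSC70, were at 0.29 (SE 0.33), 0.31 (SE 0.26) and 0.31 (SE 0.26). Of these, DNAJA1 lay on a doubled entry. DNAJC24, a cofactor of diphthamide synthesis, was at 0.47 (SE 0.36). DNAJB2 was at 0.05 and DNAJC7 at 0.03. Without the MSCs of pig 2, DNAJA1 was at 0.08, DNAJA2 at 0.13, DNAJB4 at 0.12, DNAJC24 at 0.20, DNAJB2 at 0.36 and DNAJC7 at -0.11. DNAJB5 and DNAJC17 were negative, at -0.28 (SE 0.31) and -0.32 (SE 0.29), and DNAJC17 was lower in every EV library than in every MSC library.

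Over the 29 cytosolic genes tested, 16 were negative (50.9% of all entries) and 13 positive, with a median of -0.09 against -0.02 over all entries. Over the 19 that were not on doubled entries, the median was 0.17, so the sign of the cytosolic median rested on the doubled entries. The summed CPM of the cytosolic genes was 2238 ± 240 in MSCs and 1912 ± 71.6 in EVs (SD, n = 3). Without HSP27 it was 1597 ± 136 and 1607 ± 101, so the difference in the sum lay in that gene. The difference between the ER and the cytosolic list was not tested.

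Of the 8 mitochondrial members, 7 were tested and 5 were negative, against 50.9% of all entries. The median was -0.44, against -0.02 over all entries, and -0.26 without the MSCs of pig 2. HSPA9 (mortalin), the mitochondrial HSP70, was at 277, 254 and 248 CPM in MSCs and 269.8, 338 and 315 CPM in EVs, at 0.24 (SE 0.22). DNAJA3, its J protein, was at 44.6, 64.1 and 42.5 CPM in MSCs and 40.8, 39.6 and 26.8 CPM in EVs, with no overlap and a log2 fold change of -0.50 (SE 0.28). The HSP70 and its partner thus lay on opposite sides of 0, each within 2 standard errors. HSPD1 (HSP60) and HSPE1 (HSP10), which form the mitochondrial folding chamber, were on doubled entries, at -0.03 (SE 0.23) and -0.44 (SE 0.32). DNAJC11 was at -0.44 (SE 0.26) and DNAJC4 at -0.61 (SE 0.31), neither past the unadjusted threshold. Without the MSCs of pig 2, DNAJA3 was at -0.28, DNAJC11 at -0.26 and DNAJC4 at -0.33. DNAJC28, with 115 reads in all, was at 1.04 (SE 0.63), not past the unadjusted threshold, and at 0.65 without the MSCs of pig 2. It was higher in the EVs of all 3 pigs, but the groups overlapped.

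Without overlap between the groups, 6 members were higher in EVs and 7 lower, of 54, while 14.3% and 13.6% of all entries did so. The 6 were HSPA13, DNAJB14, DNAJC25, HSPA4L, DNAJC13 and DNAJC2, and the 7 were CCT4, CCT5, CCT7, DNAJC17, HSP27, DNAJA3 and HSPBP1. In all 3 pigs, 12 members were higher in EVs (22.6% of all entries) and 17 lower (24.2% of all entries). With 3 libraries a group, an exact two-sided permutation test of 1 gene cannot go below p = 0.1.

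Of the genes taken by spelling, HSPBP1, which strips the nucleotide from HSP70, was at 61.5, 76.6 and 68.7 CPM in the MSCs of pigs 1, 2 and 3 and at 45.3, 34.4 and 27.1 CPM in their EVs. No EV library reached the level of any MSC library. It lies on chromosome 6 from 54381184 to 54393103 on the plus strand and was not doubled. Its log2 fold change was -0.95 (SE 0.26), with an unadjusted p of 0.007 and an adjusted p of 0.225 from edgeR, and it stayed between -1.16 and -0.79 with an unadjusted p of at most 0.029 when 1 library was left out. HSPBAP1 was at 0.55 (SE 0.34). HSPG2 was at 565, 758 and 675 CPM in MSCs and 386, 458 and 1708 CPM in EVs, so that the EVs of pig 3 were the highest and the other EV libraries the lowest, at 0.35 (SE 0.57) and at -0.66 without the EVs of pig 3.

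The MSC library of pig 2 stood apart in these genes. Over the 54 members, 11 differed by more than 2-fold from the mean of the other MSC libraries on the log2(CPM + 0.5) scale, against 3 and 4 in the MSCs of pigs 1 and 3 and 1 to 3 in the EV libraries. HSPB8, HSP27 and HSP70 were high there, and HSPA4L, DNAJC13, DNAJC10 and HSPA4 were low. The deviation of this library went with the length of the gene model, with a Spearman rho of -0.36 across the members and -0.12 across all entries, and with 0.25 and 0.38 across members in the MSCs of pigs 1 and 3. Each deviation is taken from the other libraries of its group, so these signs are partly tied to each other. In the EVs of pigs 1, 2 and 3, rho across members was -0.23, -0.01 and 0.18. Genes are not independent, so these are descriptions. The log2 fold change of EVs over MSCs also went with length, at a rho of 0.30 across the members and 0.15 across all entries, and the part of length in the values was not tested. With the length trend removed, HSPA13 was at 1.19, and HSP27 no longer passed both thresholds.

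**Figure D4:**
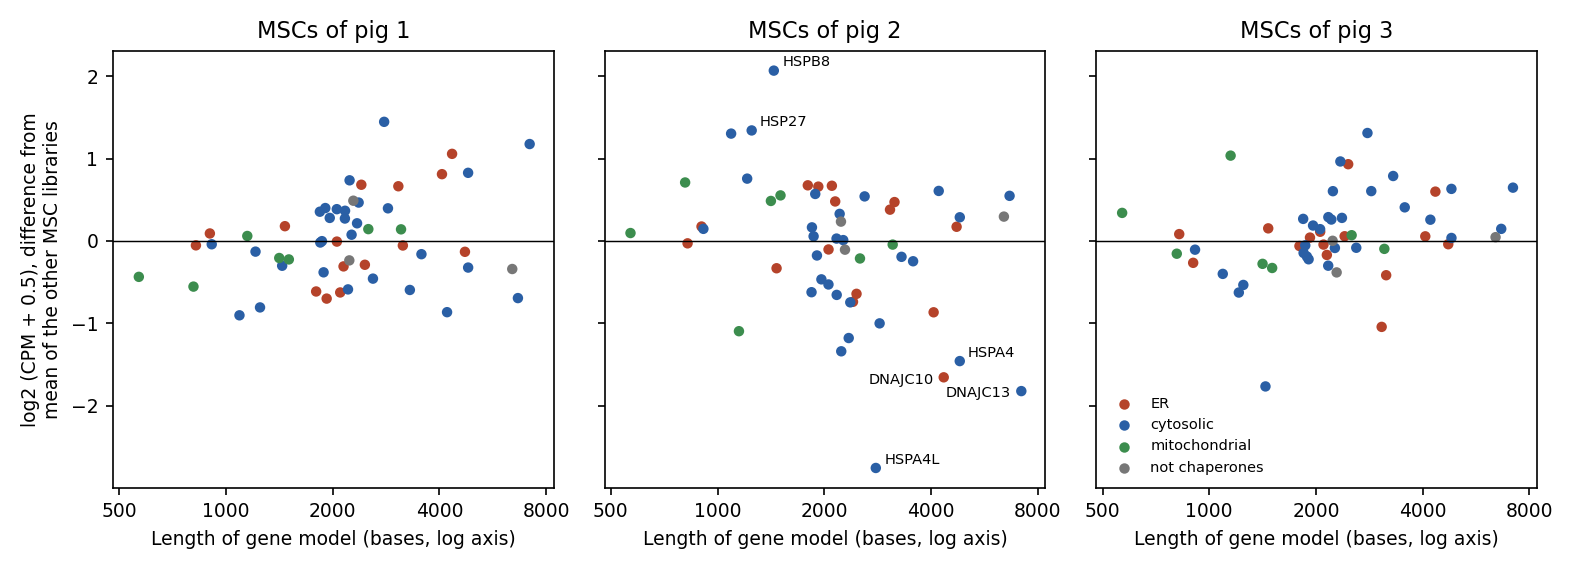
Deviation of each MSC library from the mean of the other MSC libraries, on the log2(CPM + 0.5) scale, against the length of the gene model (log axis) for the 54 members, coloured by compartment. In the MSCs of pig 2, HSPB8 and HSP27 lie above the rest and HSPA4L, DNAJC13, DNAJC10 and HSPA4 below, and the points spread wider than in pigs 1 and 3.

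Of the stress genes outside the list, SQSTM1 and HMOX1 were highest and HSF2 lowest in the same MSC library, and of the 8 genes of the unfolded protein response and ER-associated degradation 4 were highest and 4 lowest there. SQSTM1 (p62), an autophagy receptor, was at 363, 2569 and 506 CPM in the MSCs of pigs 1, 2 and 3 and 969, 2001 and 1301 CPM in their EVs. The log2 fold change of SQSTM1 went, without the MSCs of pig 2 but with its EVs kept, from 0.31 to 1.71. With the pig as a block it was 0.82, with an unadjusted p of 0.0975 from edgeR. HMOX1, heme oxygenase, was at 13.6, 163 and 20.5 CPM in MSCs and 25.1, 54.2 and 54.9 CPM in EVs. For both, pig 2 was highest among the MSCs, and for SQSTM1 it was also highest among the EVs, as for HSPB8 and HSP70. Across the members, the deviations of the EV and MSC library of 1 pig from their group means correlated at 0.20, 0.37 and 0.34 in pigs 1, 2 and 3, over 54 genes that share a depth in each library.

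Among 67 genes that work with these chaperones but fall outside the rule or are taken by it for spelling, in 6 lists, 20 had no entry, 11 had 0 reads and 31 were tested. In edgeR's fit none was higher with an unadjusted p under 0.05 (8.03% of all entries), 4 were lower (7.93%), and none was past 2-fold or past the adjusted threshold. In the fit blocked by pig, 5 of the 31 were higher (UGGT1, ATF6, SEL1L, EDEM3 and CLPX), against 10.9% of all entries, and 1 was lower (HSPBP1), against 8.67%, with none past the adjusted threshold. Of the 9 tested cochaperones of HSP90 and HSP70, 3 were lower, against 7.93% of all entries: HSPBP1 as above, STIP1 (HOP), which joins HSP70 to HSP90, and STUB1 (CHIP), the ubiquitin ligase of chaperone clients. STIP1 was at 238, 312 and 209 CPM in MSCs and 181, 155 and 143 CPM in EVs, at -0.67 (SE 0.25) with an unadjusted p of 0.031 and an adjusted p of 0.277. STUB1 was at 123, 212 and 145 CPM in MSCs and 114, 91.4 and 92.9 CPM in EVs, at -0.69 (SE 0.27) with an unadjusted p of 0.036 and an adjusted p of 0.287. MSCs and EVs did not overlap for either gene, and without the MSCs of pig 2 the unadjusted p of edgeR was 0.052 for STIP1 and 0.068 for STUB1. With the pig as a block it was 0.0545 and 0.0621.

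Of the 5 tested ER folding genes outside the rule, 4 had a negative log2 fold change, against 50.9% of all entries, and 1, UGGT1, a positive one. Their median was -0.59. With an unadjusted p under 0.05 in edgeR's test, 1 was lower: SIL1, the exchange factor of HSPA5. It was at 40.0, 36.5 and 34.7 CPM in MSCs and 27.5, 22.0 and 24.3 CPM in EVs, with no overlap. Its log2 fold change was -0.59 (SE 0.22), with an unadjusted p of 0.031 and an adjusted p of 0.278 from edgeR, and blocking by pig gave an unadjusted p of 0.0631. In that fit UGGT1, which checks the folding of glycoproteins, was higher by 1.14 with an unadjusted p of 0.0392 and an adjusted p of 0.230 from edgeR.

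Of the 8 tested genes of the unfolded protein response and ER-associated degradation, 4 were positive and 4 negative, and none passed the unadjusted threshold. ATF6, a sensor of ER stress, was at 55.1, 17.0 and 35.3 CPM in MSCs and 42.7, 68.7 and 116 CPM in EVs, at 1.08 (SE 0.50). SEL1L, a part of the ER degradation complex, was at 38.1, 13.2 and 23.0 CPM in MSCs and 29.0, 49.1 and 88.0 CPM in EVs, at 1.16 (SE 0.51). Both were lower in the EVs of pig 1 than in its MSCs, and highest in the EVs of pig 3. With the pig as a block, ATF6 was at 1.15, SEL1L at 1.17 and EDEM3, an ER mannosidase, at 1.46, with unadjusted p values of 0.0317, 0.0318 and 0.0247 and adjusted p values of 0.217, 0.217 and 0.199 from edgeR. Without the MSCs of pig 2, edgeR's log2 fold changes of the main design were 0.75, 0.86 and 0.66. The 3 tested prefoldin genes, the 4 heat shock factor and stress genes and the 2 mitochondrial genes outside the rule had none past the unadjusted threshold, but with the block CLPX, a mitochondrial unfoldase, was at 0.90 with an unadjusted p of 0.0274 and an adjusted p of 0.205 from edgeR.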

How the data were processed

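MSCs of 3 pigs and their EVs gave 6 mRNA libraries, and the small-RNA libraries were not used. The authors aligned reads with TopHat and deposited raw counts per gene entry with gene length and RPKM. The methods name featureCounts and the submitters' processing notes HTSeq and the susScr3 build. The library kit is described differently in the 2 sources, so whether strand was used in counting is not known, and how reads on overlapping entries were treated is not given in the sources used here. RPKM totals imply that 25.4% to 28.2% of a library's reads were counted on genes.

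Of 29661 entries, 3 were shifted by a space in the name and left out, 1 of them an HSP70 entry. Symbols were found for 11804 of 25322 Ensembl identifiers. HSP27 and HSPCB are older names of HSPB1 and HSP90AB1. HSPCB, with 0 reads, and HSP90AB1 are counted as separate members, although they name the same gene. Members and lists were chosen with earlier results of these data known. Counts were fitted with edgeR 4.0.16 in R 4.3.3 (TMM, filterByExpr, quasi-likelihood test, Benjamini-Hochberg adjustment over 12392 entries), with DESeq2 1.42.0 and limma 3.58.1 (log2 of RPKM plus 1 or 0.1) as alternatives. Other alternatives were 2 further scalings, no filter, the pig as a block, the length trend removed, entries of a symbol summed, and leaving out each library. The fits were tested on simulated data.

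The pairing comes from the pig labels. Deviations from group means correlated at 0.251, 0.384 and 0.408 within pigs and at -0.364 to -0.038 between pigs. The deviations of an entry sum to 0 within each group, so the negative values between pigs are partly tied to the positive ones within pigs. P-values of the main fit measure the spread between the 3 libraries of a group, with information shared across entries, and do not use the pairing. Those of the fit with the pig as a block measure the spread of the differences between EVs and MSCs within a pig.

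The genes named are the standard members of each family and up to 5 a direction with the largest change among those with an unadjusted p under 0.05 and 1 direction in all pigs, with the genes taken by spelling. Others named (DNAJC13, DNAJC2, HSPA4L, HSPB8, DNAJB14, DNAJC10, CCT6B, PDIA5 and the rest of the families) were chosen after their values were seen. One gene of the lists outside the rule is not reported here.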

Additional observations from a re-analysis of the deposited data

How the results depend on the processing

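The adjusted counts of members stayed at 0 in both directions in every fit except DESeq2, which gave 1 higher. The count of 1 member higher past the unadjusted thresholds was 2 without the filter and with DESeq2 (HSPA13 and CCT6B in both), 3 with the replicate block by pig, and 1 to 3 with 1 library left out. The count of 1 member lower was 0 with limma at either pseudocount, with the block and with the length trend removed, and 0 to 2 with 1 library left out. The members lost or gained were HSP27 without the MSCs of pig 2 or the EVs of pig 1 or 2 (lost), HSPBP1 without the MSCs or EVs of pig 1 (gained as lower), DNAJB9 without the EVs of pig 1 or the MSCs of pig 2, DNAJC13 without the MSCs of pig 1, DNAJC2 without the MSCs of pig 3, and HSP70 without the MSCs of pig 2 (gained as higher).

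Restricting to members with no doubled entry, an alternative chosen after seeing the data, moved the cytosolic median from -0.09 to 0.17. The ER and mitochondrial medians kept their signs in all fits. Over all entries, the adjusted counts of 0 higher and 0 lower became 230 and 175 with DESeq2, 61 and 75 with the block, 1 and 10 with limma at a pseudocount of 1, and 0 and 5 with limma at 0.1 and without the filter. The unadjusted counts of 688 and 442 became 233 and 194 with limma at a pseudocount of 1, and ranged from 511 to 948 and from 270 to 607 with 1 library left out.

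Of 28 named genes, 21 kept their sign in every fit. HYOU1 became -0.15 with the length trend removed, and HSPG2 -0.065 in that fit, -0.0021 with the block and -0.66 to 0.70 with 1 library left out. With 1 library left out, HSPA4 ranged from -0.18 to 0.42, CCT8 from -0.24 to 0.043, HSP90B1 from -0.080 to 0.49, PDIA4 from -0.28 to 0.53 and HSPD1 from -0.10 to 0.031. The cause was not tested. Of the 81 members, 27 had too few reads to test.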
